A study of Mus musculus with 93 samples.

Results

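The Hox genes of the mouse lie in 4 clusters, and each gene carries a paralog number that gives its place in the cluster. A total of 38 Hox genes were followed here, out of 24514 genes in the count table. They were taken by name from clusters A (10 genes), B (10 genes), C (9 genes) and D (9 genes) and divided by paralog number alone, without use of any measured value. The 11 genes of paralog groups 1 to 4 form the anterior class, and the 27 genes of groups 5 and above form the posterior class. The posterior class was further divided into groups 5 to 8 (11 genes) and groups 9 to 13 (16 genes), a division chosen after the values were seen.

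RNA-seq was performed on pools of 10 sorted cells, with 93 libraries in all. Every cell carried the same alleles, Hcn4-GFP, Tbx1-Cre and the Cre reporter Ai9, so that GFP marks cells with an active Hcn4 locus and RFP permanently marks cells that had expressed Tbx1-Cre. GFP+ cells (5 libraries) and RFP+ cells (4 libraries) were sorted from embryos. The titles give embryonic day 8.5 and the protocol day 7.75, so the stage of the embryos is uncertain. GFP+ and RFP+ cells were also sorted at day 5.5 from precardiac spheroids, which are 3D cultures made from 1 embryonic stem cell line of the same genotype. RFP records past Tbx1-Cre activity and not current Tbx1 expression. After pairs of near-identical wells were summed and a well of 6288 reads was left out, 37 GFP+ and 39 RFP+ spheroid libraries remained. The labels do not tie libraries to single embryos or cultures, so the tests measure the spread between sorted pools.

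Hox genes encode homeodomain transcription factors that give positional identity along the body axis. Within a cluster they are switched on in order, from the genes with low paralog numbers to those with high ones, and the genes at the low end respond early to retinoic acid. In the heart-forming region, the most anterior Hox genes are known to mark the posterior part of the second heart field, whereas the genes at the high end are known for roles in the trunk, tail and limbs.

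In the embryo the Hox reads came from the anterior end of the clusters. Reads of 9 of the 11 genes of groups 1 to 4 and 6 of the 11 genes of groups 5 to 8 were found in at least 1 of the 9 embryo libraries, whereas none of the 16 genes of groups 9 to 13 had a single read. In spheroids all 38 genes were detected in at least 1 of the 76 libraries, and groups 9 to 13 held reads in each of them. More libraries give more chances of a read, and some genes had very few, such as Hoxc12 with 1 read. Of the 24514 genes in the table, 15111 had a read in the embryo libraries and 21826 in the spheroid libraries. Among spheroid wells, the anterior genes Hoxb1 and Hoxa2 were higher in RFP+ cells, and Hoxc13, together with a run of neighbours from Hoxd8 to Hoxd11, was higher in GFP+ cells. Cluster C was divided in the fit without a filter on low counts, where Hoxc4, Hoxc6, Hoxc8 and Hoxc9 were higher in RFP+ wells, and Hoxc10, Hoxc11 and Hoxc13 in GFP+ wells. The run in cluster D was called in that fit as well. Hoxc6 and Hoxc11, which had few reads, were not called by a second tool, DESeq2.

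**Figure D1:**
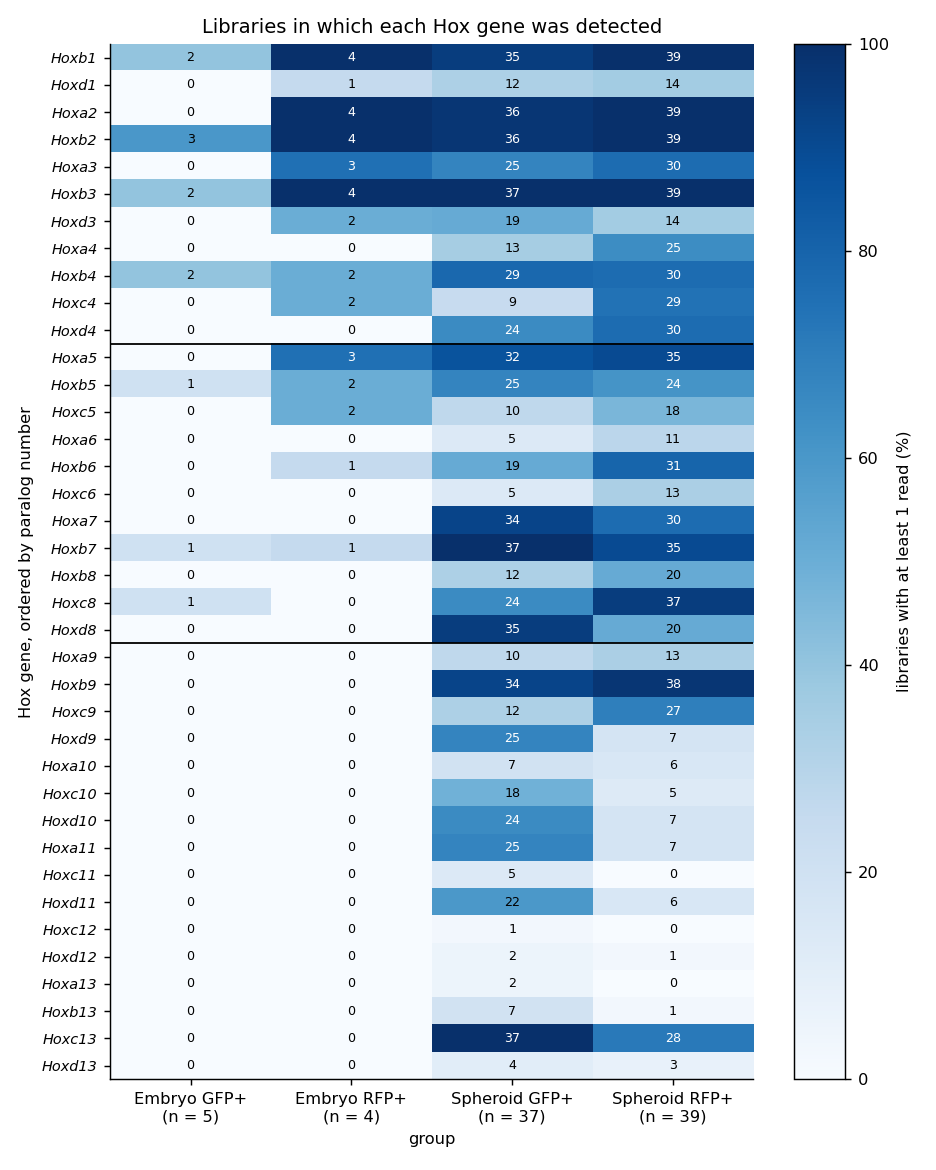
Share of libraries with at least 1 read of each Hox gene (colour, percent; printed numbers, libraries) in the 4 groups, with genes ordered by paralog number from top to bottom and lines after paralog groups 4 and 8. The 16 rows below the lower line are empty in both embryo groups, and Hoxc13 was detected in 37 of 37 GFP+ spheroid wells.

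Upstream sequences are shown for 4 genes that stand for these patterns, Hoxb1 and Hoxa2 from the anterior end and Hoxd8 and Hoxd10 from the run in cluster D. Each is the 250 bases before the RefSeq transcription start (GRCm38.p6), read on the strand of the gene. Capitals mark every match, on either strand, to 1 of 5 motifs. These are the Hox-Pbx motif TGATNNAT, a Cdx motif with the letters TTTATG, the TATA box as TATAAA, the box known by its letters CCAAT, and the half-site of retinoic acid receptors, spelled AGGTCA. The matches marked in these windows do not overlap each other.
Hoxb1, chr11:96365508-96365757, plus strand: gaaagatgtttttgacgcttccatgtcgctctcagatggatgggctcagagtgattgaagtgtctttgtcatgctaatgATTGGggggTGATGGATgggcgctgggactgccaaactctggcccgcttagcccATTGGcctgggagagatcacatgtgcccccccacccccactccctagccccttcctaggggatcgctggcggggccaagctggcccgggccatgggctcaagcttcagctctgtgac
Hoxa2, chr6:52164832-52165081, minus strand: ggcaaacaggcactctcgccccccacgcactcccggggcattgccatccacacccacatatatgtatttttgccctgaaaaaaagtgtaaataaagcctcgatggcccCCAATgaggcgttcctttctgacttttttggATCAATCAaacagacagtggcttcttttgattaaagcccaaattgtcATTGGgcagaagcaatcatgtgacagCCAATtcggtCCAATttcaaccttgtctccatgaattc
Hoxd8, chr2:74704365-74704614, plus strand: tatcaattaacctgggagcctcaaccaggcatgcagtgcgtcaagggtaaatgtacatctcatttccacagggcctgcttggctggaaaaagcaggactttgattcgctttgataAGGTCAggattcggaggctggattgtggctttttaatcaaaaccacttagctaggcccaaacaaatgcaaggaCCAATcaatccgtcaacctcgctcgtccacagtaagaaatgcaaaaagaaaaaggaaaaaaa
Hoxd10, chr2:74691641-74691890, plus strand: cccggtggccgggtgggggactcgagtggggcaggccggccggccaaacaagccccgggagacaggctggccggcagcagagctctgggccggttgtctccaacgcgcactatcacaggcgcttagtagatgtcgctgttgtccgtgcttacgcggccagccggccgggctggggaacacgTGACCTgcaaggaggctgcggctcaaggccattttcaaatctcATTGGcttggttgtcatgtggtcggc
Both anterior genes held the Hox-Pbx letters, Hoxb1 as TGATGGAT starting 162 bases before the start and Hoxa2 as ATCAATCA on the opposite strand starting 111 bases before it. These letters stood in 7.68% of the 32851 upstream windows of that length and in 4 of the 22 Hox genes with a window. Hoxd8 and Hoxd10 each held 1 half-site for retinoic acid receptors, which 14.02% of all windows and 6 of the 22 Hox genes did. The CCAAT letters were in 33.85% of all windows and 14 of the 22 Hox genes, the Cdx motif in 10.76% and 5 genes, and the TATA box in 12.37% and 4 genes. A match is a description of the letters only.

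Levels are given as CPM, the reads of a gene scaled to a common library size after TMM normalization. In the embryo libraries, 3 reads corresponded to 1.27 to 3.61 CPM, and GFP+ libraries detected fewer genes of any kind (6189 to 8302) than RFP+ libraries (10263 to 13052). With pools of cells, fewer expressing cells and less RNA per cell cannot be told apart. The spheroid populations differed in plate column, as did the sources within each population, and these cannot be told apart either. The embryonic populations differed in plate row (A to E for GFP+ and F to H for RFP+), which cannot be told apart from population.

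Hoxb1, the most anterior gene of cluster B and a direct target of retinoic acid receptors in the hindbrain, had the highest mean level per kb of exon of the Hox genes in embryonic RFP+ cells (24.3 CPM per kb, with Hoxa2 at 6.03). It reached 57.4, 65.6, 43.1 and 59.6 CPM in the 4 RFP+ libraries and 0, 1.27, 31.3, 0 and 0 CPM in the 5 GFP+ libraries. The populations did not overlap, and only the GFP+ library of well C12 came near the RFP+ range. The mean was 8.65-fold higher in RFP+ cells, but the change on the log2 scale (2.98, SE 1.81) did not pass edgeR's quasi-likelihood test (Benjamini-Hochberg adjusted p = 0.527). Of the 9 fits that each left out 1 embryo library, only the one without well C12 called the gene (log2 change 6.89, edgeR adjusted p = 0.0203). That library held 26 of the 29 GFP+ reads of Hoxb1, so leaving it out was bound to enlarge the change.

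Hoxa2, which patterns the hindbrain and the pharyngeal arches, was also without overlap. Its level was 10.9, 9.07, 0.844 and 21.99 CPM in RFP+ libraries and 0 in all 5 GFP+ libraries. The lowest RFP+ value rested on 1 read. Against a floor of 3 reads per GFP+ library, the RFP+ mean was at least 4.24-fold higher. The gene lay under the filter on low counts, and an exact permutation test of log2 CPM, two-sided, gave p = 0.00794, the smallest value that 5 against 4 libraries allow. Without the filter, edgeR gave an adjusted p of 0.0505. Of the 9 filtered fits that each left out 1 embryo library, only the one without well G12 called the gene (adjusted p = 0.0164). That well is the RFP+ library with the lowest value, so leaving it out was bound to enlarge the change.

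Hoxb2, another hindbrain segment gene, was at 20.4, 17.4, 9.29 and 16.3 CPM in RFP+ and 16.1, 0, 24.1, 0 and 13.6 CPM in GFP+ libraries. Hoxb3 was at 10.2, 14.6, 7.60 and 7.80 CPM in RFP+ and 0, 4.67, 0, 39.7 and 0 CPM in GFP+ libraries. RFP+ libraries thus varied within a narrow band for both genes, while GFP+ libraries were either at 0 or as high as or above that band, apart from 1 low value of Hoxb3. The log2 changes of 0.47 (SE 1.54, adjusted p = 0.967) and 0.14 (SE 1.58, adjusted p = 0.993) did not pass edgeR's test.

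**Figure D2:**
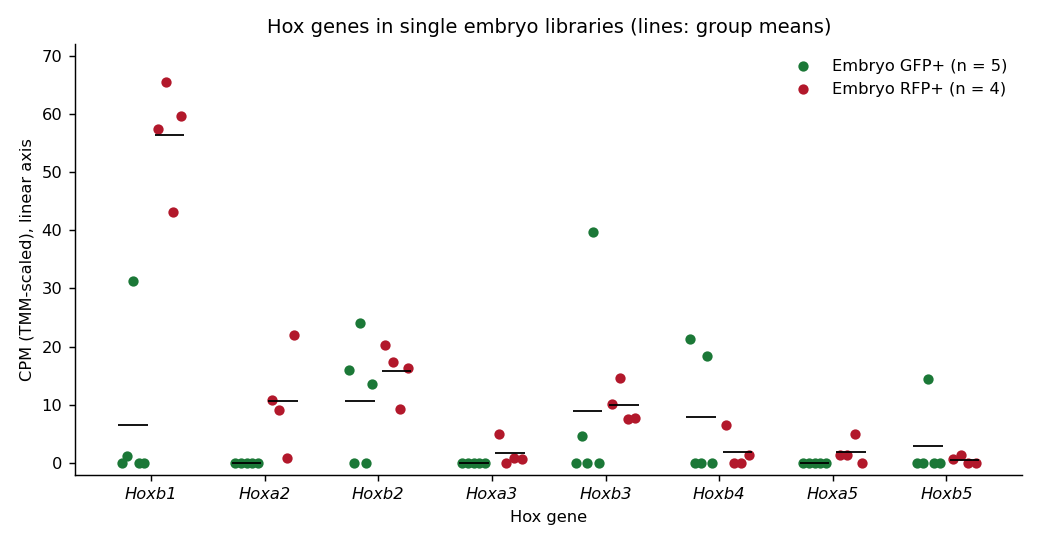
CPM (linear axis) in each embryo library for the 8 Hox genes tested or detected in at least 3 embryo libraries, with 1 point per library and a line at the mean of each population. All 4 RFP+ points lie above all 5 GFP+ points for Hoxb1 and Hoxa2, and single GFP+ libraries reach 39.7 CPM for Hoxb3 and 14.5 CPM for Hoxb5.

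Other genes also reached 3 embryo libraries. Hoxa3, a regulator of pharyngeal organs, had 5.09, 0, 0.844 and 0.709 CPM in RFP+ and 0 in all GFP+ libraries (exact permutation p = 0.0476). Hoxa5, which acts in lung and axial skeleton, had 1.45, 1.39, 5.07 and 0 CPM in RFP+ and 0 in all GFP+ libraries (exact permutation p = 0.0476). Hoxb4 was found at 6.54, 0, 0 and 1.42 CPM in RFP+ and at 21.4, 0, 0, 18.5 and 0 CPM in GFP+ libraries (exact permutation p = 0.524). Hoxb5 was found at 0.727, 1.39, 0 and 0 CPM in RFP+ and at 14.5 CPM in a single GFP+ library, with 0 in the others (exact permutation p = 1). These are 4 of 12 genes tested one by one in the embryo, and the p-values are not adjusted.

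The remaining 7 genes with embryo reads (Hoxb6, Hoxb7, Hoxc4, Hoxc5, Hoxc8, Hoxd1 and Hoxd3) were seen in 1 or 2 libraries each. The highest was Hoxc8, a thoracic gene, at 18.2 CPM in the GFP+ library of well A12 and 0 in the other 8. Over all 38 genes, 7 had a read in GFP+ and 14 in RFP+ libraries, and the number per library was 1 to 3 in GFP+ and 6 to 13 in RFP+.

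With 3 genes tested, edgeR called none of the Hox genes between the embryonic populations, and none had an unadjusted p under 0.05. Of all genes tested it called 6.21% higher and 3.88% lower in RFP+ cells. DESeq2 called 1 of the 38, Hoxa2 (adjusted p = 0.00658), against 12.3% of all genes higher and 5.33% lower in RFP+ cells. Without the filter on low counts edgeR called Hoxa2 alone of 15 genes, against 10.8% higher and 2.4% lower. Hoxb1 and Hoxa2 were the 2 of 15 genes without overlap between the populations, both higher in RFP+ cells, where 12% of all genes with a read lay above all GFP+ libraries and 1.99% below. Fisher's exact test of the libraries detected called 0 of the 15 genes and 0% of all genes at this number of libraries.

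Markers of other tissues moved with these values. The paraxial mesoderm and somite list summed to 24.4 to 88.6 CPM in RFP+ libraries (4 of 5 markers with reads) and was at 0 in GFP+ libraries (0 of 5). The neural tube list summed to 13.9 to 81.9 CPM in RFP+ (4 of 6 markers) and 0 to 7.49 CPM in GFP+ libraries (1 of 6). Pax3 stands on both of these lists, with a median of 7.54 CPM in RFP+ libraries. Of the other neural tube markers there, Pax6 had a median of 10.5 CPM, Sox2 of 1.47 and Sox1 of 0. Olig2 and Neurog2 had no reads. Of the other somite markers there, Meox1 had a median of 30.5 CPM, Tcf15 of 1.44 and Pax1 of 0.349, and Tbx6 had no reads. Both sums thus rested mostly on Pax6, Pax3 and Meox1. The cardiomyocyte list, with reads of 7 of 7 markers in both, summed to 16422 to 48771 CPM in GFP+ and 1164 to 2142 CPM in RFP+ libraries. The second heart field list summed to 178 to 311 CPM in RFP+ (6 of 6 markers) and 52.6 to 278 CPM in GFP+ libraries (4 of 6, with Tbx1 and Foxc2 at 0). The endoderm list summed to 3.55 to 202 CPM in RFP+ (4 of 4 markers) and was at 0 in GFP+ libraries (0 of 4). In RFP+ libraries Epcam and Cdh1 had medians of 41.4 and 22.2 CPM, and Sox17 and Foxa2 of 0.364 and 0.349 CPM. The endothelium list summed to 1.69 to 157 CPM in RFP+ (3 of 3) and 0 to 16.6 CPM in GFP+ libraries (1 of 3). The part of these cell types in the Hox values was not tested.

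In spheroids, Hoxb1 ranged from 3.57 to 99.9 CPM (median 28.1) in the 39 RFP+ libraries and from 0 to 40.0 CPM (median 7.15) in the 37 GFP+ libraries. The populations overlapped, but the mean was 3.04-fold higher in RFP+ wells (log2 change 1.58, SE 0.25, edgeR adjusted p = 4.27e-08), and it was higher in RFP+ wells in 8 of 8 plate rows. Hoxa2 ranged from 1.61 to 36.04 CPM (median 19.1) in RFP+ and from 0 to 15.6 CPM (median 7.203) in GFP+ libraries. Its mean was 2.67-fold higher in RFP+ wells (log2 change 1.40, SE 0.21, adjusted p = 1.13e-08), again in 8 of 8 plate rows. Both genes thus differed between the populations in the direction of the embryo libraries, with every RFP+ well holding reads of both.

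Hoxb2 and Hoxb3 differed less. Hoxb2 ranged from 3.55 to 31.1 CPM (median 12.6) in RFP+ and from 0 to 25.1 CPM (median 8.36) in GFP+ wells, a log2 change of 0.47 (SE 0.19, edgeR adjusted p = 0.0258). Hoxb3 ranged from 5.45 to 32.9 CPM (median 13.5) in RFP+ and from 0.483 to 32.2 CPM (median 11.1) in GFP+ wells, and its log2 change of 0.26 (SE 0.16) did not pass the test (adjusted p = 0.141). With plate row as a covariate it was 0.34 and passed (adjusted p = 0.0584). Hoxb3 was the only Hox gene with reads in all 76 wells.

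Hoxc13, at the end of cluster C and best known from hair and nail, had the largest contrast of the genes that passed the filter. It ranged from 1.74 to 40.98 CPM (median 18.3) in GFP+ wells and from 0 to 9.33 CPM (median 1.72) in RFP+ wells. The mean of 19.2 ± 9.56 CPM (SD, n = 37) was 7.32-fold that of RFP+ wells at 2.62 ± 3.00 CPM (SD, n = 39). The log2 change from GFP+ to RFP+ was -2.84 (SE 0.29, edgeR adjusted p = 4.17e-15), and GFP+ wells were higher in 8 of 8 plate rows. Per kb of exon, Hoxc13 had the highest mean of the 38 genes in GFP+ wells (7.79 CPM per kb), above Hoxb1 (4.56), Hoxb7 (4.27) and Hoxa2 (3.82), whereas in RFP+ wells Hoxb1 (13.9) and Hoxa2 (10.2) came first and Hoxc13 was at 1.06 CPM per kb. Its neighbours Hoxc12 and Hoxc11 had 1 and 15 reads over all GFP+ wells, compared with 1435 of Hoxc13.

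Hoxb9, a thoracic gene, was the last to pass the filter. It ranged from 0 to 38.4 CPM (median 6.44) in RFP+ and from 0 to 24.8 CPM (median 3.61) in GFP+ wells, and the log2 change of 0.38 (SE 0.31) did not pass edgeR's test (adjusted p = 0.258). Of the 38 genes, 6 passed the filter and 4 were called, 3 higher and 1 lower in RFP+ wells. Of all genes tested 38% were called higher and 39.1% lower, so that a call was the usual outcome in this comparison. Hoxc13 reached the filter's minimum of 6.46 CPM in 35 GFP+ and 7 RFP+ libraries, and Hoxa2 in 21 and 38, so that genes such as these passed largely through the population in which they were high.

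**Figure D3:**
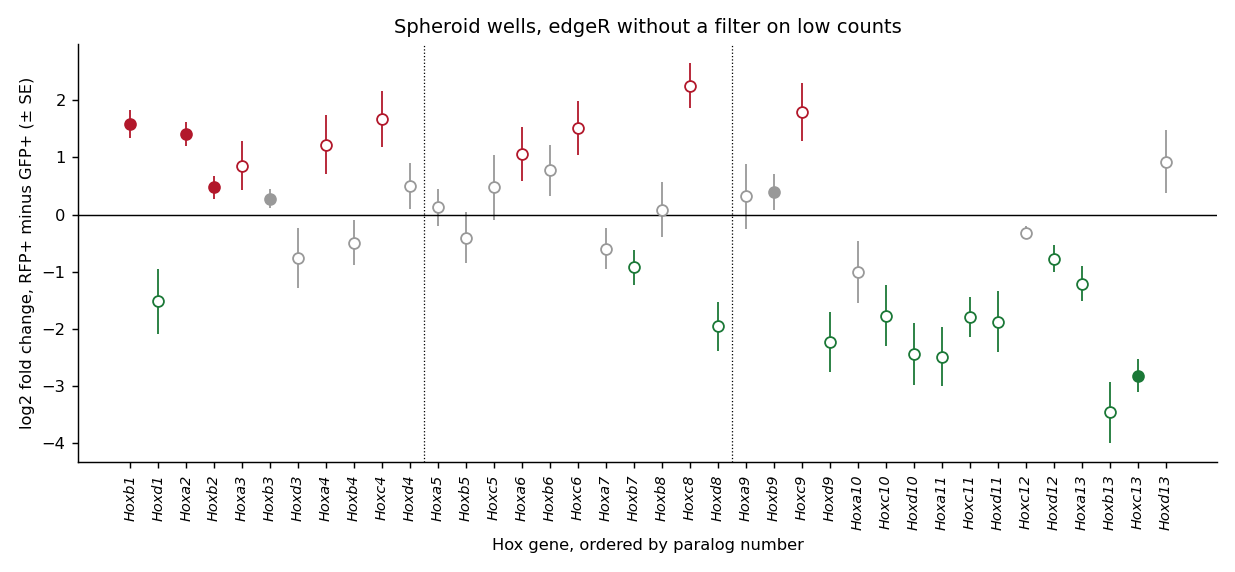
Log2 fold change from GFP+ to RFP+ spheroid wells (points, with SE) for each Hox gene in paralog order, from the edgeR fit without a filter on low counts, with red for genes called higher and green for genes called lower in RFP+ wells, grey for genes not called, and filled points for the 6 genes that pass the filter. Green points gather at the right, where 10 of the 16 genes of groups 9 to 13 lie, and red points at the left.

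The other 32 genes were too low for the filter and were examined by 3 further tests, without the filter in edgeR, by permutation of log2 CPM (100000 resamples, two-sided, unadjusted) and by the number of wells with a read. Without the filter, 10 of the 38 genes were called higher in RFP+ wells and 13 lower, where 23% of all genes were called higher and 35.5% lower. By class, 6 of the 11 genes of groups 1 to 4 were higher and 1 lower, 3 of 11 in groups 5 to 8 were higher and 2 lower, and 1 of 16 in groups 9 to 13 was higher and 10 lower. DESeq2 called 8 higher and 10 lower, where 25.7% and 39.1% of all genes were called. Among the 32 genes under the filter, edgeR without it called 19, and 15 of these had a permutation p under 0.05. The 4 others were Hoxa6, Hoxa13, Hoxd1 and Hoxd12, of which Hoxa13 and Hoxd12 rested on 4 and 9 reads in all.

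The run in cluster D comprised Hoxd8 and its 3 neighbours, genes known from the trunk, limb and genital bud. Hoxd8 had reads in 35 of 37 GFP+ wells (0 to 24.3 CPM, median 4.66) and 20 of 39 RFP+ wells (0 to 12.8 CPM, median 0.322). Hoxd9 had reads in 25 GFP+ and 7 RFP+ wells, Hoxd10 in 24 and 7, and Hoxd11 in 22 and 6. All 4 were thus read in most GFP+ wells, with overlap between the populations. Means were 3.79-fold (Hoxd8), 5.29-fold (Hoxd9), 5.73-fold (Hoxd10) and 4.42-fold (Hoxd11) higher in GFP+ wells. The log2 changes toward RFP+ were -1.96 (Hoxd8, edgeR without the filter, adjusted p = 5.49e-05), -2.23 (Hoxd9, adjusted p = 1.51e-04), -2.44 (Hoxd10, adjusted p = 6.94e-05) and -1.87 (Hoxd11, adjusted p = 0.00186). Permutation p-values were 1e-05, 3e-05, 4e-05 and 3.8e-04, the first being the smallest that the resamples can give. At least 1 of Hoxd9, Hoxd10 and Hoxd11 was detected in 35 GFP+ and 15 RFP+ wells, and all 3 together in 9 GFP+ and 0 RFP+ wells. Further along the cluster the genes were nearly silent, with Hoxd12 in 2 GFP+ and 1 RFP+ wells and Hoxd13 in 4 and 3.

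Hoxa11, a limb and uterus gene, resembled the run in cluster D. It was detected in 25 GFP+ wells (up to 8.49 CPM) and 7 RFP+ wells (up to 3.87 CPM), with a mean 7.13-fold higher in GFP+ wells (log2 change -2.49, edgeR without the filter, adjusted p = 2.25e-05, permutation p = 1e-05). It shares 800 of its 2287 exon bases with the antisense gene Hoxa11os, and the strand used for counting is not given in the sources used here. Hoxc10 was found in 18 GFP+ and 5 RFP+ wells (log2 change -1.77, adjusted p = 0.00371). Hoxc11 was found in 5 GFP+ and 0 RFP+ wells, with 15 reads in all. Its unadjusted permutation p was 0.0232, and DESeq2 did not call it. Hoxb13 was found in 7 GFP+ wells at up to 9.18 CPM, 59 reads in all, and in 1 RFP+ well with 1 read. The ratio of pooled CPM was 62.5 (exact 95% interval 10.8 to 2509 from counting error alone, permutation p = 0.0107), and the ratio of means 43.2. DESeq2 (adjusted p = 0.150) and Fisher's exact test of wells detected (adjusted p = 0.202) did not call Hoxb13. Hoxb7 was detected in 37 GFP+ and 35 RFP+ wells, with medians of 6.01 and 2.45 CPM (log2 change -0.92, adjusted p = 0.00732).

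Hoxc8 and Hoxc9, thoracic genes of cluster C, went the other way. Hoxc8 was detected in 37 of 39 RFP+ wells (0 to 39.8 CPM, median 7.15) and 24 of 37 GFP+ wells (0 to 16.8 CPM, median 0.964), a mean 4.68-fold higher in RFP+ wells (log2 change 2.26, edgeR without the filter, adjusted p = 7.85e-07, permutation p = 1e-05). Hoxc9 was detected in 27 RFP+ and 12 GFP+ wells, with a mean 3.65-fold higher in RFP+ wells (log2 change 1.79, adjusted p = 0.00190). Hoxc4 was detected in 29 RFP+ and 9 GFP+ wells, 3.43-fold higher in RFP+ wells (log2 change 1.67, adjusted p = 0.00258). Hoxc6 was rarer, with reads in 13 RFP+ and 5 GFP+ wells (log2 change 1.51, adjusted p = 0.00492). DESeq2 did not call Hoxc6 (adjusted p = 0.243), and its unadjusted permutation p was 0.0116. The 4 genes lie side by side in cluster C with Hoxc5, whose log2 change of 0.48 did not pass (adjusted p = 0.489) and which shares 166 exon bases with Hoxc10.

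Among anterior genes, Hoxa3 (log2 change 0.86, edgeR without the filter, adjusted p = 0.0797) and Hoxa4 (1.22, adjusted p = 0.0372) were called higher in RFP+ wells. Hoxa3 shares 800 of its 6014 exon bases with Hoxaas2 and Hoxaas3 on the opposite strand. Hoxd1, the group 1 gene of cluster D, had reads in 12 of 37 GFP+ and 14 of 39 RFP+ wells, so that it was detected about as often in both. Its call toward GFP+ wells without the filter (log2 change -1.52, adjusted p = 0.0180) came with a permutation p of 0.145. Hoxb4, Hoxd3 and Hoxd4 were not called (adjusted p = 0.297, 0.216 and 0.309), and the last 2 share 388 exon bases.

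The 7 remaining genes of paralog groups 5 to 10 were not called in the spheroid wells by edgeR without the filter on low counts. Hoxa5 was detected in 32 GFP+ and 35 RFP+ wells with medians of 2.55 and 2.92 CPM, and Hoxb5 in 25 and 24 wells. Hoxa7 was detected in 34 GFP+ wells (median 4.75 CPM) and 30 RFP+ wells (median 2.57 CPM), and Hoxb6 in 19 GFP+ and 31 RFP+ wells. Both had a low unadjusted permutation p, 0.0145 for Hoxa7 and 0.0121 for Hoxb6, without an edgeR call (adjusted p = 0.151 and 0.142), while DESeq2 called Hoxa7 lower in RFP+ wells (log2 change -0.65, adjusted p = 0.0911). Hoxb8 was found in 12 GFP+ and 20 RFP+ wells, Hoxa9 in 10 and 13, and Hoxa10 in 7 and 6, so these 3 genes had no read in most GFP+ wells.

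Counting wells gave fewer calls than counting reads. By Fisher's exact test, two-sided and adjusted over the 21826 genes with a read, 3 Hox genes were detected in more RFP+ wells (Hoxc4, Hoxc8 and Hoxc9) and 7 in more GFP+ wells (Hoxa11, Hoxc10, Hoxc13, Hoxd8, Hoxd9, Hoxd10 and Hoxd11). Of all genes 2.08% were called toward RFP+ and 7.9% toward GFP+ wells. Of the 7, 6 belonged to the 16 genes of groups 9 to 13.

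**Figure D4:**
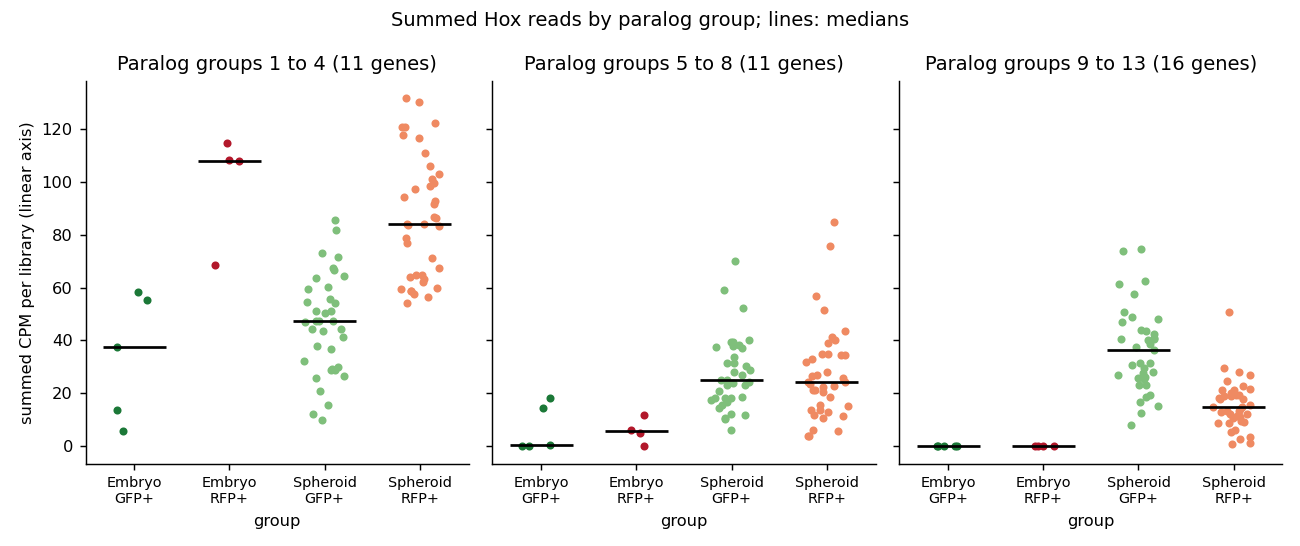
Summed CPM (linear axis) of the Hox genes of paralog groups 1 to 4, 5 to 8 and 9 to 13 in each library, 1 point per library, with lines at the group medians. In spheroids the RFP+ median is higher for groups 1 to 4 (84.2 against 47.3 CPM) and the GFP+ median for groups 9 to 13 (36.3 against 14.9 CPM), and all 9 embryo libraries are at 0 in the right panel.

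Summed over each class, the 11 anterior genes had a median of 84.2 CPM (54.0 to 132) in RFP+ and 47.3 CPM (9.92 to 85.4) in GFP+ spheroid wells. Groups 5 to 8 had nearly the same medians, 24.2 CPM (3.75 to 84.9) in RFP+ and 24.9 CPM (6.05 to 70.1) in GFP+ wells. Groups 9 to 13 reached 14.9 CPM (0.937 to 50.9) in RFP+ and 36.3 CPM (7.84 to 74.7) in GFP+ wells. The single gene Hoxc13 supplied a large share of the last sum, with medians of 1.72 and 18.3 CPM. The embryo libraries had 68.4 to 115 CPM of anterior reads in RFP+ and 5.94 to 58.2 CPM in GFP+ cells, and 0 to 11.6 and 0 to 18.2 CPM of groups 5 to 8.

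The number of genes of groups 9 to 13 detected was 3 to 12 (median 6) in GFP+ and 1 to 8 (median 4) in RFP+ wells. Expected numbers after thinning every library to 400000 reads were 4.04 and 2.43 at the median. The shallowest spheroid library held 540597 reads and the embryo libraries 712732 to 2525460, with 0 reads of these genes in the embryo libraries and at least 1 in every spheroid library. At these depths embryonic GFP+ libraries detected 6189 to 8302 genes of any kind and embryonic RFP+ libraries 10263 to 13052, against 12837 to 14671 (GFP+) and 11434 to 14101 (RFP+) in spheroids. The part of this difference in the Hox counts was not tested.

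**Figure D5:**
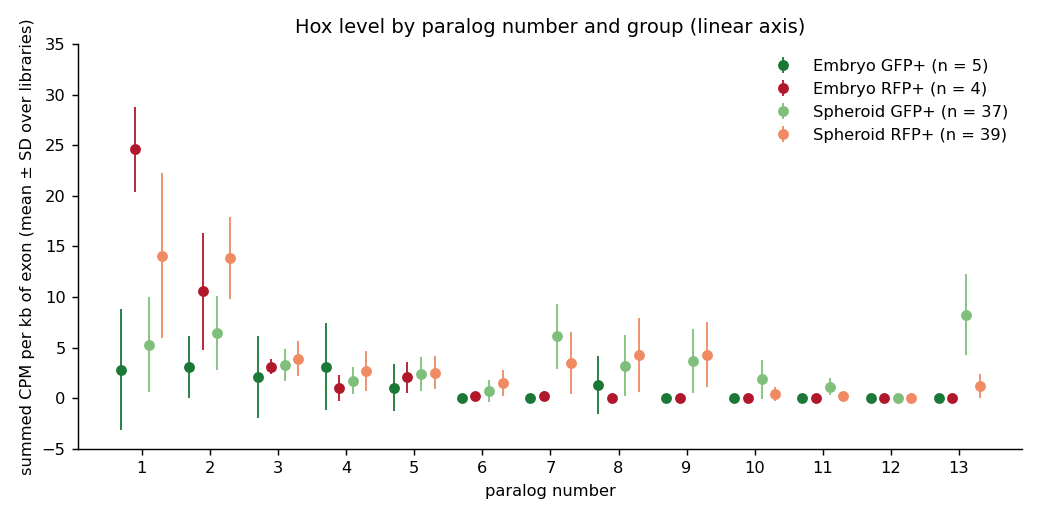
Summed CPM per kb of exon for each paralog number (linear axis), as mean and SD over the libraries of each group. Embryonic RFP+ cells fall from 24.6 at paralog 1 to 0 from paralog 8 on, and GFP+ spheroid wells are at 8.25 at paralog 13.

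Between sources, RFP+ cells were compared for 10 genes that passed the filter. Hoxb1 was higher in the embryo (log2 change 0.82, SE 0.35, edgeR adjusted p = 0.0648), a call lost without well F12, G11 or H11 and also without the filter on low counts (adjusted p = 0.104). A further 5 genes were lower in the embryo. Hoxc8, Hoxb9, Hoxc13 and Hoxa7 had 0 reads in the 4 embryo libraries and were at least 4.44-fold, 3.65-fold, 1.17-fold and 1.56-fold higher in spheroids against a floor of 3 reads per library. Having no embryo reads, these genes passed the filter through spheroid wells alone and could only come out as lower in the embryo. Hoxb7 had 2 embryo reads and a pooled CPM 9.10-fold higher in spheroids (exact 95% interval 2.49 to 75.5 from counting error alone, edgeR adjusted p = 0.0386), a call lost without well F12, G12 or H11. Hoxa2, Hoxb2, Hoxb3 and Hoxa5 were not called, although Hoxa2 was called lower without the embryo library of well H11 (log2 change -1.35, adjusted p = 0.0222). Of all genes 19.8% were called higher and 22.3% lower in the embryo.

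GFP+ cells differed between sources in 7 of 11 genes tested, all lower in the embryo, where 20.2% of all genes were called higher and 48.1% lower and the median log2 change of all genes was -0.65. Hoxc13 (at least 7.60-fold), Hoxa2 (2.69-fold), Hoxd8 (2.49-fold), Hoxb9 (2.42-fold) and Hoxa7 (2.09-fold) had no embryo reads, and these are lower bounds of the spheroid excess. Hoxb7, with 1 embryo read, had a pooled CPM 47.3-fold higher in spheroids (exact 95% interval 8.45 to 1872 from counting error alone, edgeR adjusted p = 7.85e-06). Hoxd10 also had no embryo reads (adjusted p = 0.00921), but its spheroid mean of 2.28 CPM lay below the floor of 2.52 CPM, so that no lower bound above 1 can be given. Genes without embryo reads passed the filter through spheroid wells alone, so that they could only come out as lower in the embryo. Hoxb4 went the other way where it was tested. It lay under the filter, and was called higher in the embryo by DESeq2 (log2 change 2.03, adjusted p = 0.0267), with a minimum count of 3 (1.82, adjusted p = 0.0307) and without a filter (1.87, adjusted p = 0.0392), with embryo reads in wells A12 and D12 only. Hoxb1, Hoxb2, Hoxb3 and Hoxc8 were not called. Single embryo libraries decided 3 of these, since Hoxb1 was called lower without well C12 (log2 change -4.51, adjusted p = 0.00142), Hoxb3 without well D12 (-2.93, adjusted p = 2.34e-04) and Hoxc8 without well A12, the only one with its reads (adjusted p = 0.0222). Without well C12 the count rose to 11, of which 10 were lower and Hoxb4 was higher in the embryo.

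The difference of the GFP+ to RFP+ change between embryo and spheroid was tested for the 3 genes in both comparisons. It was 1.41 (SE 1.82, adjusted p = 0.914) for Hoxb1, 0.01 (SE 1.56) for Hoxb2 and -0.12 (SE 1.59) for Hoxb3 on the log2 scale, and none passed. None had an unadjusted p under 0.05. A single edgeR fit over the 4 groups, which assumes 1 spread for groups that differ in spread, called 3 of 11 genes. These were Hoxa2 (5.95, edgeR adjusted p = 5.44e-05), Hoxa5 (4.80, adjusted p = 0.00457) and Hoxc8 (-7.93, adjusted p = 0.00126). Hoxa2 and Hoxa5 had 0 reads in embryonic GFP+ libraries, and Hoxa5 had 10 reads in embryonic RFP+ libraries. Hoxc8 had 17 embryo reads, all in 1 GFP+ library.

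Markers of other cell types also moved with source and population in spheroids. The limb and lateral plate list (3 of 3 markers with reads in both) summed to 41.5 to 198 CPM in GFP+ and 14.97 to 89.6 CPM in RFP+ wells. The paraxial mesoderm and somite list (5 of 5 in both) summed to 0.550 to 41.9 CPM in GFP+ and 65.0 to 179 CPM in RFP+ wells, without overlap. The endoderm list (4 of 4 in both) was higher in GFP+ wells, at 135.5 to 375.6 CPM (median 210.4), than in RFP+ wells, at 31.4 to 154.7 CPM (median 67.2). This sum followed Epcam (median 117.6 CPM in GFP+ and 26.3 in RFP+ wells) and Cdh1 (90.7 and 29.1). The other members went the other way. Foxa2 had reads in 17 of 37 GFP+ and 37 of 39 RFP+ wells, and Sox17 in 9 and 25. The neural tube list (6 of 6 in both) summed to 2.25 to 33.1 CPM in GFP+ and 17.03 to 106 CPM in RFP+ wells. Much of this was Pax3 (median 0 CPM in GFP+ and 22.95 in RFP+ wells), which the somite list also holds. Pax6 was higher in RFP+ wells as well (medians 0.287 and 2.33). Sox1 (2.36 and 2.61) and Sox2 (6.21 and 5.15) were similar in GFP+ and RFP+ wells. The pluripotency list (3 of 3 in both) summed to 19.5 to 1457 CPM in GFP+ and 4.16 to 498 CPM in RFP+ wells, and to 0 to 2.91 CPM in embryo libraries. The cardiomyocyte list summed to 19.1 to 1246 CPM (median 51.5) in GFP+ wells and 12.4 to 125.9 CPM (median 59.1) in RFP+ wells. The higher maximum of GFP+ wells thus came without a higher median of the sum, but single members differed in both directions. Ttn (median 21.54 CPM in GFP+ and 3.37 in RFP+ wells) and Tnni1 (22.07 and 14.03) were higher in GFP+ wells. Actc1 (2.69 and 17.03), Myl7 (2.01 and 6.69) and Myl4 (1.203 and 2.18) were higher in RFP+ wells. Tnnt2 was similar in both (3.381 and 3.497), and Nkx2-5 had a median of 0 in both. Both populations were far below embryonic GFP+ cells. Their part in the Hox values was not tested.

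Hox proteins bind DNA with Pbx, Meis and Pknox proteins, the TALE cofactors. All 9 cofactor genes were in the table, and of the 9 tested in spheroids 5 were higher and 3 lower in RFP+ wells, while 0 of 8 were called in the embryo, where 1 had an unadjusted p under 0.05. Of all genes 38% were called higher and 39.1% lower in spheroids, and 6.21% and 3.88% in the embryo, so that calls in most of a list were usual in spheroids. Of 18 upstream regulators (Cdx, retinoic acid and Polycomb or Trithorax genes and segment factors), 10 were tested in spheroids, with 6 higher and 3 lower in RFP+ wells, and 8 in the embryo, with 2 higher. The 2 called in both were Gbx2, a hindbrain boundary factor, and Bmi1, a Polycomb protein. Gbx2 was at 14.6 to 24.7 CPM in embryonic RFP+ libraries and 0 in GFP+ libraries (at least 8.001-fold higher against the floor of 3 reads per library, edgeR adjusted p = 0.0112) and had a log2 change of 0.85 in spheroids (adjusted p = 0.00862). Bmi1 was at 17.4 to 43.1 CPM in embryonic RFP+ and 0 in GFP+ libraries (at least 11.4-fold higher, adjusted p = 0.0138), with a log2 change of 0.28 in spheroids (adjusted p = 0.0218). Without GFP+ reads, both genes passed the embryo filter through RFP+ libraries alone and could only come out as higher there. Among 14 cluster RNAs, 12 were in the table, 2 were tested in spheroids and 1 was called, against the same shares of all genes, Hoxaas3, chosen for mention after its values were seen. It was higher in RFP+ wells (2.34 to 129 CPM, median 47.4) than in GFP+ wells (0 to 72.5 CPM, median 3.14; log2 change 2.37, adjusted p = 1.24e-08) and shares 586 exon bases with Hoxa7 and 297 with Hoxa3 on the opposite strand.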

How the data were processed

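RNA-seq was performed on 10-cell pools. Per the labels and the methods of the study, Trimmomatic 0.36 was used for trimming (a quality of at least 35 and 36 bases left), HISAT2 2.0.4 for alignment against mm10, and featureCounts 1.5.2 for counting. The deposited table holds raw read counts per gene without normalization, for 24514 genes and 93 libraries. Strand settings are not given in the sources used here, and reads carry no molecular identifiers, so floors and intervals cover counting error only.

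The members, gene lists and tests were chosen with earlier results of these data known. Groups follow the labels. RFP+ spheroid wells of plate columns 3 and 4 in the same row (7 pairs) differed less than other pairs (chi-square per gene 1.37 to 2.39, against 2.68 to 14.2 in 1028 other pairs) although still by more than sampling noise, and each pair was summed into 1 library. A GFP+ well with 6288 reads was left out. Analysed depth was 712732 to 2525460 reads (embryonic GFP+), 1246546 to 1479957 (embryonic RFP+), 828193 to 4371849 (spheroid GFP+) and 540597 to 7422768 (spheroid RFP+).

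Each comparison was fitted over all genes with edgeR 4.0.16 in R 4.3.3 (TMM, filterByExpr with minimum count 10, minimum total 15 and proportion 0.7, quasi-likelihood F-test), with Benjamini-Hochberg adjustment and calls at an adjusted p under 0.1. Standard errors are the log2 change over the root of F. The test was run on counts simulated from edgeR's own fitted spread for genes that pass the filter. That check does not cover genes under the filter. Genes under the filter were tested on log2 CPM (prior count 2) by exact permutation (embryo) or 100000 resamples (spheroids), and shares of libraries with a read by Fisher's exact test. The difference between sources used 7 degrees of freedom. Alternatives were DESeq2 1.42.0, other scalings and filters, plate row, each embryo library left out, and other definitions of detection. All 38 genes are named, with every embryo library for those tested or found in at least 3 of them, and list genes called in both comparisons. Exon lengths and overlaps come from GENCODE M21 (GRCm38), and upstream sequences from RefSeq (GRCm38.p6), where 22 of the 38 genes matched.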

Additional observations from a re-analysis of the deposited data

Results flagged for a closer look

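Among 17 sets of embryo values of a gene or class with any spread, 5 held a library far from the others by Dixon's criterion. Chance flags about 1 in 20 sets of normal values, but many of these sets consist mostly of libraries without reads. A set with reads in 1 library only, such as Hoxb5 in GFP+ cells, is flagged whatever its level. The 5 can therefore not be set against that rate. The GFP+ library of well C12 was the highest for Hoxb1 (31.3 CPM) and for Hoxb5 (14.5 CPM), and that of well D12 for Hoxb3 (39.7 CPM). Among RFP+ libraries, well F12 was the highest for Hoxa3 (5.09 CPM), and well G12 was the lowest for the summed CPM of paralog groups 1 to 4 (68.4 CPM).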

How the results depend on the processing

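Leaving out 1 embryo library at a time gave 0 to 1 Hox genes called between the embryonic populations, 4 to 5 between sources in RFP+ cells and 7 to 11 in GFP+ cells. Between embryonic populations DESeq2 called 1 and the fit without a filter on low counts 1, against 0. In spheroids DESeq2 called 18, no filter 23 and a minimum count of 3 called 7, against 4. Between sources, RFP+ cells had 10 calls with DESeq2 and 10 with a minimum count of 3 (1 higher and 9 lower in the embryo in each) and 9 without a filter (0 higher), against 6. GFP+ cells had 16 with DESeq2, 26 without a filter and 23 with a minimum count of 3, against 7, and in each of these 1 gene, Hoxb4, was higher in the embryo. These alternatives test more low genes. One fit over the 4 groups called 3 differences between sources, against 0. Directions reversed for Hoxb3 in the embryo without well A12 (-0.17), C12 (-0.17) or E12 (-0.18; range to 0.28 without G12), and in GFP+ cells between sources for Hoxc8 without well A12 (-5.002, fitted against libraries at 0 reads and no bound; range to 1.002 without B12) and Hoxb2 without well C12 (-0.49) or E12 (-0.03; range to 0.46 without B12), all on the log2 scale and called for Hoxc8 only. The cause was not tested.

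Median numbers of genes detected fell with stricter definitions. Expected at 400000 reads, they were 5.16 (spheroid GFP+) and 6.13 (spheroid RFP+) for groups 1 to 4, and 8.30, 7.05 and 0.176 (embryonic GFP+) for groups 5 and above. With at least 1 CPM, groups 5 and above had 8 in spheroid RFP+ and 0 in embryonic GFP+ libraries. With at least 5 reads, groups 1 to 4 had 4 (spheroid GFP+), 5 (spheroid RFP+) and 4 (embryonic RFP+), and groups 5 and above 6 (spheroid GFP+), 4 (spheroid RFP+) and 0 (embryonic GFP+). No paired analysis was possible because the plate positions pair no libraries between groups. At 10 cells a library and 3 reads as the floor, most posterior genes were near the limit of detection.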
